A study of Mus musculus with 4 samples.

Results

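NF-kB is a family of dimeric transcription factors built from Rel subunits, and the genes described here are those of its subunits, its inhibitors and the kinase complex that releases it. In resting cells IkB proteins hold the dimers in the cytoplasm. Cytokines, microbial products or mechanical stress activate the IkB kinase complex, which marks the inhibitors for destruction and lets the dimers enter the nucleus, where they switch on genes of inflammation, adhesion and survival. Some of those targets are NF-kB genes themselves, so that the pathway rebuilds its own inhibitors. Activity is set mainly by protein breakdown and nuclear entry, which an array of messenger RNA does not measure.

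The 10 genes were taken by symbol: the subunits Rela, Rel, Relb and Nfkb2, the inhibitors Nfkbia, Nfkbib, Nfkbie and Nfkbiz, and Ikbkb and Ikbkg of the kinase complex. All 10 had at least 1 named probe, out of 15366 genes with a name, and they were covered by 15 probes. The subunit gene Nfkb1 and the kinase gene Chuk were not analysed here. Each gene is represented by its brightest probe, the one with the highest mean of the 4 arrays. A probe that stays under the overall probe median of 5.80 on all arrays is called dim here, and none of the 10 brightest probes was dim.

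The samples were bladder RNA of male mice on a normal diet. For 2 arrays the outlet had been partially obstructed for 14 days, which raises the pressure needed to void, and 2 arrays came from sham operations. The sources used here give neither strain nor age, nor the time after the sham operation. The series names NF-kB, with GATA-6, as a regulator of caveolin genes in the growing bladder muscle, and the comparison here asks whether the transcripts of the NF-kB genes themselves differed after obstruction. The labels do not say that each array held a separate animal, so p-values measure the spread between these arrays, which may be technical.

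The levels of cell type markers differed between the arrays. The urothelial genes Upk2, Upk3a and Krt7 and the muscle genes Actg2, Myh11 and Acta2 lay above 12 on the log2 scale on all arrays, while the urothelial markers Upk1b and Krt20 were dim. The accessory gland markers are secretory genes of the male reproductive tract. Of these, 12 of 12 were higher in both obstructed arrays than in either sham array, against 17.6% of all genes. In the test given below, 0 of the 12 passed. Their summed linear intensity was 8195 and 633 in the sham arrays, 25008 in obstructed replicate 1 and 274635 in obstructed replicate 2. In sham replicate 1 only Sbp (11.91) and Spink1 (11.93) were high on the log2 scale. The other markers of this list lay at 6.16 or below in that array. Summed leukocyte markers stood at 5793 and 6090 in sham against 8635 and 3475 in obstructed bladders (replicate 1 before replicate 2, as in all such pairs), and 11 of 12 were lower in obstructed replicate 2 than in obstructed replicate 1. The leukocyte genes Cd79a and Itgam were dim. Smooth muscle markers summed to 97833 and 123623 in sham against 98405 and 69869 in obstructed bladders, and fibroblast markers to 58186 and 61668 against 59676 and 42305. In bulk tissue fewer cells of a type and less RNA per cell cannot be told apart. Results are therefore given for each obstructed array as well as for the group.

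**Figure D1:**
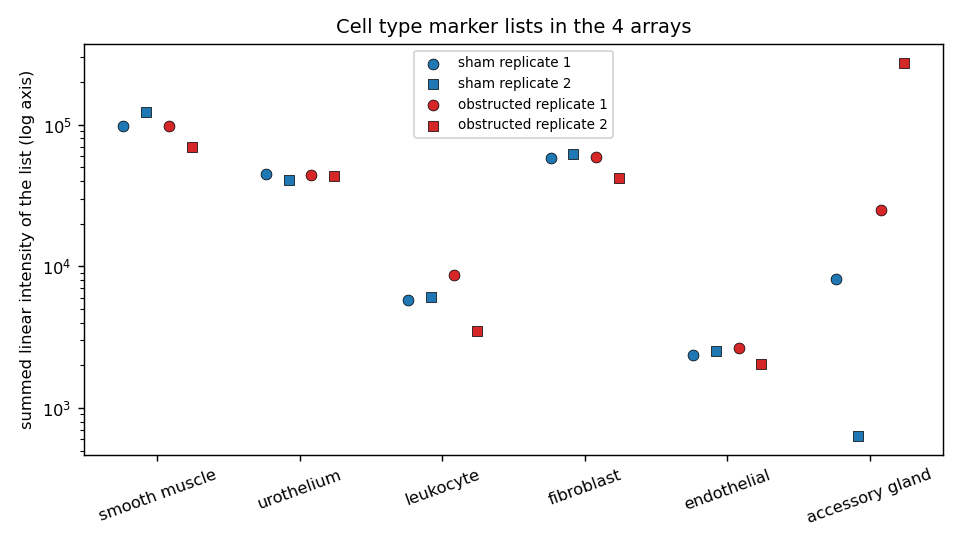
Summed linear intensity of 6 lists of cell type markers (log axis) in each of the 4 arrays, blue for sham and red for obstructed. Obstructed replicate 2 is highest for the accessory gland list, at 274635, and lowest for the smooth muscle, leukocyte, fibroblast and endothelial lists.

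Several NF-kB genes carry in their own promoters the 10-base sequence that NF-kB dimers bind. RefSeq promoters (GRCm38.p6, 250 bases before to 50 bases after each start site) were available for 7 of the 10 genes, and were searched on both strands for the kappa-B consensus, the degenerate motif of Rel dimers. A match was present in 4 of these 7 genes, Rel, Nfkb2, Nfkbia and Nfkbie, whereas 5.14% of all genes with a promoter entry did. Genes can have several entries, and of the 32851 single promoters of this length 4.51% held a match. The promoters of Rela, Nfkbib and Ikbkg held no match in this window. The stretches around the matches are shown because these genes carry the motif of the factor that they encode or inhibit, and the matches are in capitals. They are written 5′ to 3′ on the strand of the gene.
Rel, chr11:23771031-23771081, minus strand: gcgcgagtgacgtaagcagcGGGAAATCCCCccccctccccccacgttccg
Nfkbia, chr12:55492647-55492696, minus strand: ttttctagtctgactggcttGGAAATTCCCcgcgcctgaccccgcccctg
Nfkbie, chr17:45555574-45555623, plus strand: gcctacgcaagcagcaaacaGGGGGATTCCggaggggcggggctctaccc
Nfkb2, chr19:46304678-46304755, plus strand: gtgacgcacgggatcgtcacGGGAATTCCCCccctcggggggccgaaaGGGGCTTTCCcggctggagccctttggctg
Nfkb2, chr19:46305685-46305734, plus strand: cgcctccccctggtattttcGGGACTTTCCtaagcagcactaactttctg
The match begins 92 bases before the start site in Rel, 29 in Nfkbia and 106 in Nfkbie. Nfkb2 has several start sites, and its first promoter held 3 matches, the outermost beginning 39 bases before the start. The second Nfkb2 stretch shown has its match 225 bases before the last listed start site, and 10 bases after another. A further Nfkb2 match, beginning 236 bases before that other start site, is not shown. In Rel and at the first Nfkb2 site the motif fits on both strands with a shift of 1 base, so that overlapping matches were counted. A match is a description of the letters and does not show that a factor binds there.

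Of the 10 genes, 0 passed the test between obstructed and sham bladders in either direction, by limma with Benjamini-Hochberg adjustment over all 15366 genes at an adjusted p below 0.05. The background is low, since 8 of all genes, or 0.0521%, passed. At an unadjusted p below 0.05 it was also 0 of the 10, against 8.14% of all genes. The log2 differences ran from -0.27 for Nfkb2 to 0.31 for Nfkbiz, and their median was 0.05 against -0.016 over all genes. The median size of the difference, regardless of sign, was 0.11. A difference here is always obstructed minus sham in log2 units, and its 95% interval is from the same fit. Values per array are log2 intensities.

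**Figure D2:**
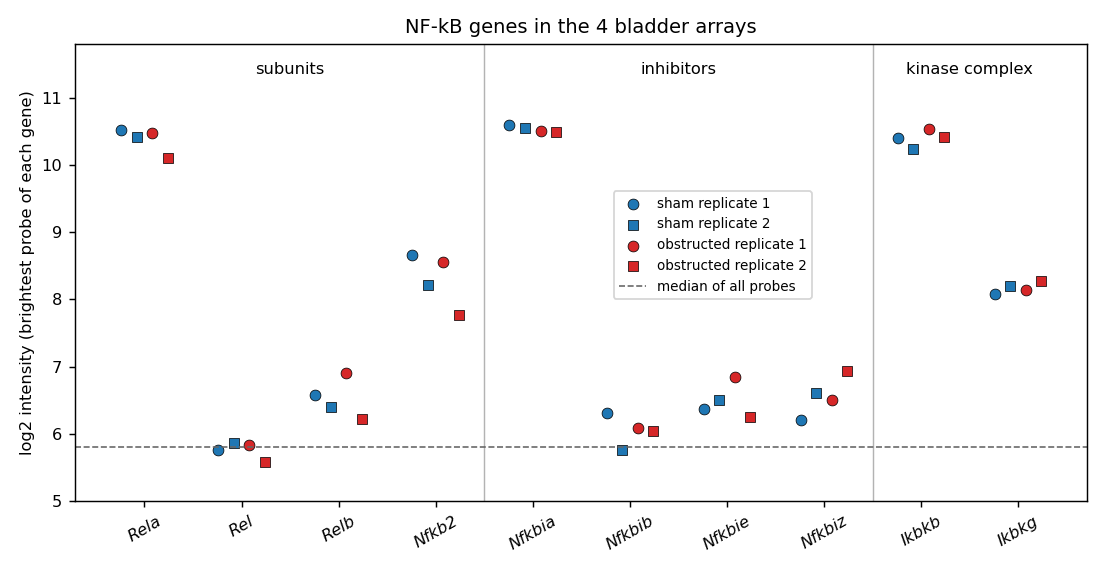
Log2 intensity of the brightest probe of each NF-kB gene in the 2 sham arrays (blue) and the 2 obstructed arrays (red), with replicate 1 as circles and replicate 2 as squares; the dashed line is the median of all probes, 5.80. Heights of different genes come from different probes and cannot be set against each other. For Rela, Rel, Relb and Nfkb2 the lowest of the 4 points is obstructed replicate 2.

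Among the subunits, Nfkb2 had the most negative difference. Nfkb2 encodes a precursor that is trimmed to its active form when the non-canonical arm of the pathway is engaged. It measured 8.65 and 8.22 in sham and 8.56 and 7.77 in obstructed bladders. The first obstructed array lay between the sham arrays and the second below both. Its difference was -0.27 (SE 0.32, 95% interval -1.05 to 0.51, limma adjusted p = 0.869), with 8.44 ± 0.31 in sham and 8.16 ± 0.56 in obstructed bladders (SD, n = 2).

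Rela encodes the subunit that carries the main activation domain of the canonical dimer. Its values were 10.52 and 10.42 in sham and 10.48 and 10.10 in obstructed bladders. Again 1 obstructed array lay within the sham range and the other below it. Rela differed by -0.18 (SE 0.22, interval -0.72 to 0.36, limma adjusted p = 0.876). Rel encodes c-Rel, a subunit best known from lymphocytes and myeloid cells, and its probe was close to the median of all probes. It measured 5.76 and 5.87 in sham and 5.84 and 5.58 in obstructed bladders, a difference of -0.10 (SE 0.14, interval -0.46 to 0.25, limma adjusted p = 0.890). The groups overlapped.

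Relb encodes the partner of the processed Nfkb2 product in the non-canonical dimer. Relb measured 6.58 and 6.41 in sham and 6.91 and 6.22 in obstructed bladders. The obstructed arrays thus lay on either side of both sham arrays, 0.42 above the sham mean and 0.27 below it. The mean difference was 0.07 (SE 0.25, interval -0.53 to 0.67, limma adjusted p = 0.965).

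The classical inhibitor Nfkbia, which encodes IkB alpha and is itself switched on by NF-kB, was the steadiest of the inhibitors between replicates. Its values were 10.59 and 10.55 in sham and 10.50 and 10.48 in obstructed bladders. Both obstructed arrays lay below both sham arrays, by a gap of 0.056. The difference was -0.08 (SE 0.19, interval -0.54 to 0.38, limma adjusted p = 0.948), and 29.4% of all genes had a smaller one in size. Its promoter held a kappa-B match, shown above.

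Nfkbie, which encodes IkB epsilon, another inhibitor that holds dimers in the cytoplasm, measured 6.37 and 6.50 in sham, 6.85 in obstructed replicate 1 and 6.25 in obstructed replicate 2. As for Relb, the obstructed arrays lay on either side of the sham arrays. Its difference was 0.12 (SE 0.22, interval -0.43 to 0.66, limma adjusted p = 0.929). Another probe of Nfkbie, which was dim, differed by 0.14.

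Nfkbib encodes IkB beta, a slower inhibitor. The spread of Nfkbib lay in the sham group, with 6.31 and 5.75 there and 6.09 and 6.05 in obstructed bladders. Both obstructed values fell between the sham values. Its difference was 0.03 (SE 0.20, interval -0.47 to 0.53, limma adjusted p = 0.983).

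Nfkbiz encodes IkB zeta, a nuclear member of the IkB family that works with NF-kB on a subset of inflammatory genes rather than holding it in the cytoplasm. It measured 6.20 and 6.61 in sham and 6.51 and 6.93 in obstructed bladders. Obstructed replicate 2 was the highest of the 4, and obstructed replicate 1 lay below the higher sham array, so the groups overlapped. The difference was 0.31 (SE 0.22, interval -0.22 to 0.85, limma adjusted p = 0.757), or 1.24-fold, and 79.7% of all genes had a smaller one in size. Nfkbiz thus had the largest difference of the 10 genes in size, and it did not pass.

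The catalytic kinase Ikbkb, which phosphorylates the inhibitors, measured 10.40 and 10.23 in sham and 10.53 and 10.41 in obstructed bladders. The groups did not overlap, but the gap between the nearest arrays was 0.011. The difference was 0.16 (SE 0.20, interval -0.33 to 0.64, limma adjusted p = 0.879). A dimmer probe of Ikbkb, with 7.13 and 7.30 in sham and 7.33 and 6.89 in obstructed bladders, differed by -0.11, so that the probes of this gene gave opposite signs. Ikbkg encodes NEMO, the regulatory subunit that links the kinase to upstream signals. It measured 8.09 and 8.20 in sham and 8.14 and 8.27 in obstructed bladders, a difference of 0.06 (SE 0.19, interval -0.40 to 0.53, limma adjusted p = 0.960). The other probes of Ikbkg, of which 2 were dim, differed by 0.03, 0.11 and 0.18, all of the same sign.

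**Figure D3:**
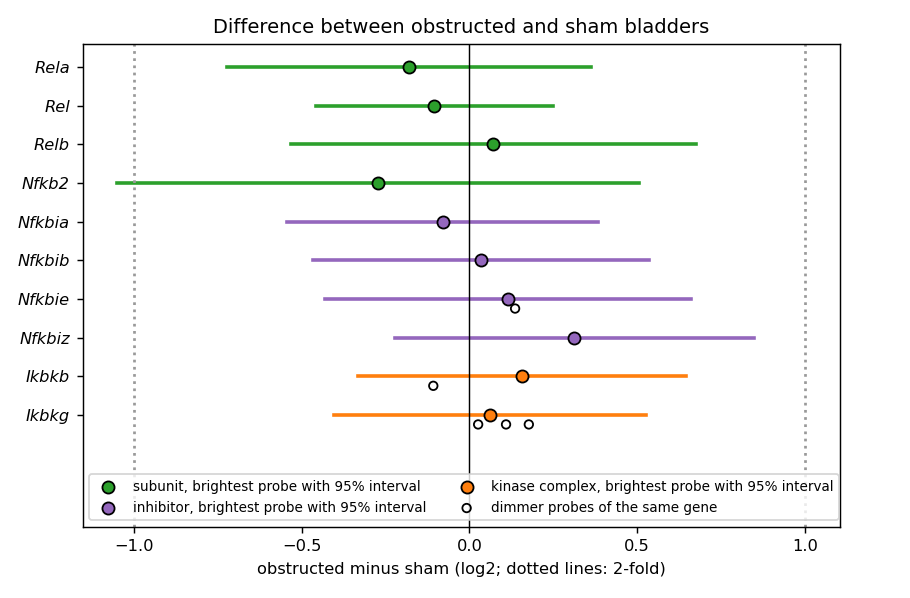
Difference between obstructed and sham bladders (x axis, log2) for each NF-kB gene, with the 95% interval of the limma fit as a line, the brightest probe as a filled point and dimmer probes as open circles. Every interval includes 0, and only that of Nfkb2 reaches past a 2-fold change, to -1.05.

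The intervals give the range of changes that the limma fit leaves possible for each gene. In that fit eBayes draws the spread of each gene toward that of other genes, on 6.04 degrees of freedom. Without moderation the SE ran from 0.019 for Nfkbia to 0.45 for Nfkb2, and no interval was computed from it. For 9 of the 10 genes the moderated interval lay inside a 2-fold change in either direction, from -0.72 at the lowest to 0.85 at the highest. The exception was Nfkb2, whose interval allowed up to 2.07-fold less in obstructed bladders. These ranges are not the limits of what the test could call. The target gene Mmp9, described below, differed by -1.51 (SE 0.22) and did not pass (limma adjusted p = 0.149). The smallest change that 2 arrays per group can detect was not tested.

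Groups that did not overlap were no more common among these genes than among all genes. Only Nfkbia lay lower in both obstructed arrays than in either sham array, and only Ikbkb higher, 2 of 10 in all. Over all genes the share was 39.2%, made up of 17.6% higher and 21.6% lower.

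The obstructed arrays differed from each other in these genes. Obstructed replicate 2 was below obstructed replicate 1 in 8 of the 10 genes, against 53.8% of all genes, and it was the lowest of the 4 arrays in 6 of the 10, against 32.9% of all genes. Those 6 were the subunits Rela, Rel, Relb and Nfkb2 and the inhibitors Nfkbia and Nfkbie. From obstructed replicate 1 to replicate 2 the values differed by -0.79 for Nfkb2, -0.69 for Relb, -0.60 for Nfkbie and -0.38 for Rela. In the opposite sense Nfkbiz was 0.42 higher and Ikbkg 0.14 higher in obstructed replicate 2. The median SD of the 10 genes was 0.11 in sham and 0.23 in obstructed bladders. It was 0.11 and 0.15 over all genes, and 0.11 and 0.22 over the pathway lists described below.

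Against the sham mean the 4 subunits lay at 0.01 (Rela), 0.03 (Rel), 0.42 (Relb) and 0.12 (Nfkb2) in the first obstructed array. In the second they lay at -0.37, -0.23, -0.27 and -0.67 in the same order. The array in which all 4 were lowest was also the one with the lowest summed leukocyte, smooth muscle and fibroblast markers and the highest accessory gland sum, as given above. The part of those tissues in the difference was not tested.

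**Figure D4:**
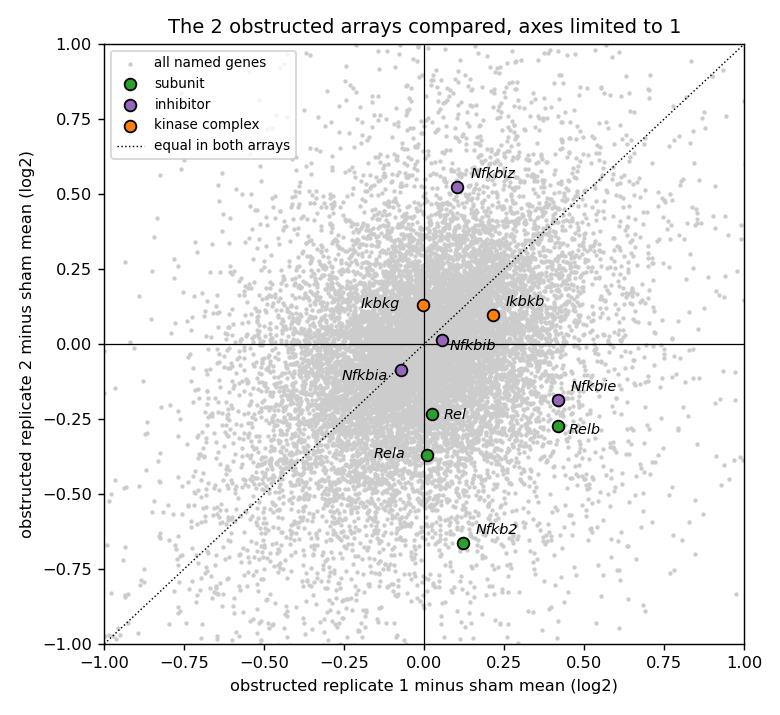
Each NF-kB gene by its value minus the sham mean in obstructed replicate 1 (x axis) and obstructed replicate 2 (y axis), both in log2, with all named genes in grey and axes limited to 1. The 4 subunits lie at or right of 0 on the x axis and between -0.67 and -0.23 on the y axis, while Nfkbiz is at 0.52 on the y axis.

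With obstructed replicate 2 as the only obstructed array, 0 of the 10 genes passed the limma test over all genes, while 8.45% of all genes did. At an unadjusted p below 0.05 there were 2 of the 10, against 19.4% of all genes, and these were Nfkb2 (-0.67, limma adjusted p = 0.113) and Nfkbiz (0.52, adjusted p = 0.145). With obstructed replicate 1 alone, again 0 of the 10 passed, against 2.10% of all genes. Relb (0.42, limma adjusted p = 0.335) and Nfkbie (0.42, adjusted p = 0.327) were the 2 at an unadjusted p below 0.05, against 13.0% of all genes. Such a fit takes the spread from the sham arrays and applies it to the single obstructed array. Relb and Nfkbie had the opposite sign in the other obstructed array.

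The rest of the pathway was examined through 5 lists of genes, of which 114 were measured. Over all genes 0 of the 114 passed the limma test, and 8 had an unadjusted p below 0.05, 4 of them higher and 4 lower, where 3.05% and 5.09% of all genes were. Among these 8 genes, Tirap, Irak1, Tnfrsf12a and Il1rn were higher, and Mmp9, Csf1, Cxcl10 and Traf5 lower.

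Of the other subunits, inhibitors and kinases, 19 of 21 listed genes were measured, 0 passed, and the differences ran from -0.37 to 0.42 with a median of -0.0046. The genes with the smallest p were COMMD genes, a family that makes up much of this list. Their unadjusted limma p ran from 0.134 for Commd8 to 0.209 for Commd1. The family member Commd1 promotes the removal of nuclear Rela. Commd1 differed by -0.28, and Commd8, Commd2 and Commd6 by -0.37, -0.21 and 0.42.

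Of the ligands and receptors that feed the pathway, all 25 were measured, 10 were dim, and 0 passed. The median difference was 0.04. Tnfrsf12a, the receptor of the cytokine TWEAK, measured 9.11 and 8.47 in sham and 9.66 and 9.54 in obstructed bladders. Both obstructed arrays lay above both sham arrays, with a difference of 0.81 (SE 0.27, limma adjusted p = 0.537). Il1rn, the natural antagonist of interleukin-1, and the interleukin gene Il1b were among the dim genes and differed by 0.30 and 0.23. Tlr3, a sensor of double-stranded RNA, differed by -0.27.

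Of the adaptors and upstream kinases, 26 of 33 were measured, 0 passed, and the median difference was -0.0024. Tirap and Irak1 are an adaptor and a kinase on the route from Toll-like and interleukin-1 receptors, and Tirap had close replicates. Tirap measured 7.08 in both sham arrays and 7.67 in both obstructed arrays, a difference of 0.59 (SE 0.16, limma adjusted p = 0.441). Irak1 measured 8.77 and 8.53 in sham and 9.49 and 9.32 in obstructed bladders, a difference of 0.75 (SE 0.21, limma adjusted p = 0.461). In both genes the obstructed arrays lay above the sham arrays with little difference between each other. Traf5, an adaptor of TNF receptors, measured 9.66 and 9.32 in sham and 9.06 and 8.23 in obstructed bladders, a difference of -0.84 (SE 0.32, limma adjusted p = 0.594). Irak2, a relative of Irak1, differed by -0.37.

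Of the negative regulators and deubiquitinases, 14 of 16 were measured, 0 passed, and the median difference was 0.0081. Tnfaip3, which encodes the feedback inhibitor A20 and is a target of NF-kB, measured 7.04 and 7.06 in sham and 6.97 and 6.50 in obstructed bladders. Both obstructed arrays lay below sham, 1 of them only just, and the difference was -0.31 (SE 0.20, limma adjusted p = 0.737). The SUMO ligase Pias1 differed by -0.42, the autophagy adaptor Sqstm1 by -0.41 and the ubiquitin ligase Peli1 by -0.35.

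Of 30 target genes, all were measured, 6 were dim, and 0 passed. Their median difference was 0.03, with 16 means higher and 14 lower. Mmp9, a matrix protease, measured 9.21 and 8.97 in sham and 7.74 and 7.41 in obstructed bladders. Both obstructed arrays were more than 1 log2 unit below both sham arrays, and the difference was -1.51 (SE 0.22, limma adjusted p = 0.149). Csf1, the growth factor of macrophages, measured 7.39 and 7.49 in sham and 6.93 and 6.33 in obstructed bladders, a difference of -0.81 (SE 0.23, limma adjusted p = 0.464). The chemokine Cxcl10, a dim gene, differed by -0.47 and the stress gene Gadd45b by 0.38.

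**Figure D5:**
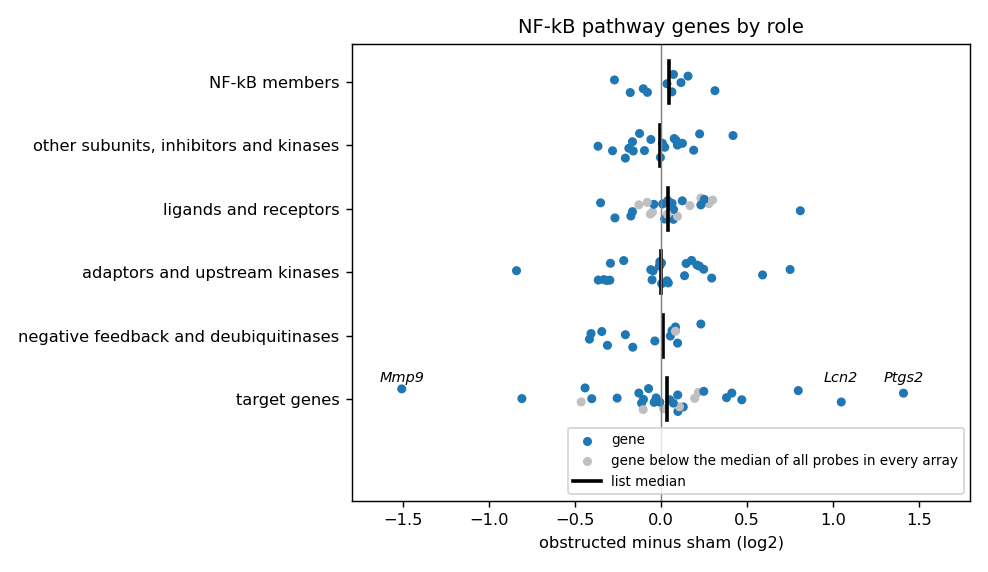
Difference between obstructed and sham bladders (x axis, log2) for each measured gene of the NF-kB members and of 5 lists of pathway genes, with the list median as a black bar and dim genes in grey. The medians lie between -0.0046 and 0.05, and Mmp9, Lcn2 and Ptgs2 are the genes beyond 1. In obstructed replicate 1 alone Lcn2 was at -0.04 and Ptgs2 at -0.67 against the sham mean.

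The pathway genes were also compared with 1 obstructed array at a time, and the numbers that passed were near the share over all genes. With obstructed replicate 2 alone, 9 of the 114 pathway genes passed the limma test, 3 higher and 6 lower, against 8.45% of all genes, and with obstructed replicate 1 alone 3 passed, against 2.10%. Obstructed replicate 2 was below obstructed replicate 1 in 16 of the 30 target genes, or 53.3%, against 53.8% of all genes. Mmp9 was the gene that passed in the same direction in both, at -1.68 with obstructed replicate 2 alone and -1.34 with obstructed replicate 1 alone. These fits share the same sham arrays and take the spread from them, so passing in both is not a replication. With both obstructed arrays in the fit Mmp9 did not pass (limma adjusted p = 0.149). Saa3, an acute-phase protein named after its values were seen, passed in both in opposite directions, at -0.64 in obstructed replicate 2 (limma adjusted p = 0.0362) and 0.78 in obstructed replicate 1 (adjusted p = 0.0478). The others that passed in obstructed replicate 2, also named after their values were seen except Csf1, Sqstm1 and Traf5, were Ptgs2 (3.49), Lcn2 (2.14) and Plau (1.46), which were higher, and Ccl5 (-1.03), Csf1 (-1.11), Sqstm1 (-0.77) and Traf5 (-1.25), which were lower. In obstructed replicate 1 the third was Bcl2a1a, a survival gene with near-identical copies in the mouse genome that the probe may not tell apart, at 1.12. Ptgs2 (-0.67), Lcn2 (-0.04) and Ccl5 (0.83) had the opposite sign in obstructed replicate 1, as did Bcl2a1a (-0.18) in obstructed replicate 2. Plau, Csf1, Sqstm1 and Traf5 had the same sign in both obstructed arrays. Obstructed replicate 2 was the array with the high accessory gland and low leukocyte sums given above, and their part in these values was not tested.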

How the data were processed

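Biotin-labelled bladder RNA was measured on 4 Illumina arrays, 2 sham and 2 obstructed for 14 days, per the labels. The deposited table of the authors holds 46657 probes as log2 intensities, a scale judged from the range of 4.14 to 15.63. The sorted columns differed by at most 0.0252, the mark of quantile normalization. The sources used here give no background correction, detection p-values or software. Platform annotation named 22380 probes and 15366 genes, and the brightest probe was used per gene. Groups were compared with limma 3.58.1 in R 4.3.3, using lmFit and eBayes (trend on), two-sided, over all genes, on 6.04 degrees of freedom, without a filter on dim probes. The fit was tested on simulated data. The members, lists and tests were chosen with earlier results of these data known. All 10 members were named, and from each pathway list the 4 genes with the smallest p. Of the listed genes, 14 were not analysed here. Same-numbered arrays deviated from their group means with a correlation of -0.017 over genes. This value did not show that the numbers pair the arrays, and with 2 arrays per group it cannot exclude a pairing. Python 3.11.15 and matplotlib 3.10.9 drew the figures. The number of arrays limits the precision.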

Additional observations from a re-analysis of the deposited data

How the results depend on the processing

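None of the 10 NF-kB genes passed under any of the 15 alternatives run, with limma adjusted p-values from 0.113 upward. These were quantile normalization, centring, linear values floored at 50, a filter that removes genes whose mean of the 4 arrays is under the probe median, all probes averaged, each probe on its own, eBayes without a trend or with a robust one, no moderation, a block for the replicate number (replicate block), leaving out each array, and an adjusted p below 0.1. Of 139 member differences recomputed, 131 kept their sign and 8 reversed, all when 1 array was left out. Other alternatives moved a difference by at most 0.13. Quantile normalization and centring had little to change, since the sorted columns were already nearly equal, and the floor moved only Rel. Averaging the probes could not move the 7 genes with 1 probe. The filter, the eBayes variants, no moderation, the replicate block and each probe on its own could not change a sign. They kept the difference of the brightest probe as it was. The dimmer Ikbkb probe, at -0.11 against 0.16 for the brightest, is thus not among the reversals. Rel, whose mean is under that median, has no value with the filter. Leaving out each array gave -0.37 to 0.0093 for Rela, -0.23 to 0.026 for Rel, -0.27 to 0.42 for Relb, -0.67 to 0.12 for Nfkb2, -0.25 to 0.31 for Nfkbib, -0.19 to 0.42 for Nfkbie and -0.0055 to 0.13 for Ikbkg, while Nfkbia, Nfkbiz and Ikbkb kept their sign. The 8 calls over all genes became 0 with the floor (1251 at an unadjusted p below 0.05), 3 with the filter, 17 with a robust trend, 0 without moderation (1061 unadjusted), 1 with the replicate block and 23 at an adjusted p below 0.1. Without 1 array they ranged from 0, without either sham array (588 and 590 unadjusted), to 1299 without obstructed replicate 1, with 323 without obstructed replicate 2. Calls in the pathway lists were 0 without either sham array and up to 9 without obstructed replicate 1. The replicate block changed no call of an NF-kB or pathway gene, and the cause of these changes was not tested. No detection p-values were at hand, so the values of Rel, near the median of all probes, could not be set against background.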

Other observations

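Kappa-B matches were counted in the promoters of the pathway lists in the same way as in the NF-kB genes. Of the 22 target genes with a RefSeq promoter entry, 10 held a match: Ccl20, Cxcl1, Cxcl2, Cxcl10, Il6, Csf1, Sod2, Bcl2l1, Ier3 and Irf1. Of 12 negative regulators with an entry, 5 did, namely Tnfaip3, Tnip1, Cyld, Tax1bp1 and Sqstm1. Among adaptors and upstream kinases there were 2 of 21, Map3k7 and Bcl10, among ligands and receptors 4 of 21, and among the other subunits, inhibitors and kinases 2 of 15, Bcl3 and Nfkbid. Of all measured genes with an entry, 719 of 12415, or 5.79%, held one. These 719 genes had a median difference between obstructed and sham bladders of -0.04 on the log2 scale and 0 passed the limma test. The other 11696 had a median of -0.01 and 6 passed. Over all genes 0.0521% passed, too few for these counts to tell the sets apart.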
